A study of Homo sapiens with 9 samples.

Results

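The genes examined were 7 genes of sterol and fatty acid synthesis, namely HMGCS1, SQLE, FASN and SCD, which encode enzymes, and SREBF1, SREBF2 and INSIG1, which encode regulators of the pathway. They were chosen by name for their place in the pathway, with earlier results of these data in view, and a peak was assigned to a gene when it overlapped the gene body or the 20 kb on either side. The cells were HepG2, an established line from a human liver tumour, and open chromatin was mapped by ATAC-seq, a method that uses a transposase to tag the DNA it can reach. A non-targeting siRNA (NTG) or either of 2 siRNAs against INO80 (siINO80#1 and siINO80#2) was given at 50 nM for 72 hours. INO80 is the catalytic subunit of a remodeling complex that moves and edits nucleosomes. Each of the 3 groups had 3 replicates of the same cell line, labelled A to C, for 9 samples in all. Each group was represented by 1 list of peaks covering its replicates. The merged peaks of the 3 lists formed 111260 regions, of which 30 lay in the windows of the 7 genes. These windows held 25 of the 69730 peaks of NTG, 16 of the 69333 peaks of siINO80#1 and 12 of the 53113 peaks of siINO80#2.

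Sterol regulatory element-binding proteins (SREBPs) are transcription factors that are made as membrane-bound precursors in the endoplasmic reticulum. When sterols are scarce, the escort protein SCAP carries them to the Golgi, where they are cut, and the released part enters the nucleus and binds sterol regulatory elements (SREs) upstream of target genes, often beside sites for NF-Y or Sp1. When sterols are plentiful, INSIG proteins hold SCAP in the endoplasmic reticulum. SREBF2 encodes SREBP-2, which acts mainly on cholesterol synthesis, and SREBF1 encodes the SREBP-1 isoforms, of which the form made from the downstream start site acts mainly on fatty acid synthesis in liver. HMGCS1 makes HMG-CoA early in the mevalonate pathway and SQLE oxidises squalene at the first step toward the sterol rings. FASN builds palmitate and SCD introduces the double bond of monounsaturated fatty acids. In the liver these enzymes supply membranes, lipoproteins and bile acids.

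No list gives a value per replicate. Whether a difference between lists exceeds the spread of the replicates therefore could not be tested, and the comparisons are descriptions without a p-value. Fold enrichment is the ratio of the reads at the summit of a peak to the local background of the same list. Because lists differ in background, peaks were compared between lists by presence, by the percentile of their fold enrichment within their own list, and by the reads at the summit divided by the genome background of the list, called scaled reads here. The relative number of reads behind the lists was 1 for NTG, 1.43 for siINO80#1 and 1.44 for siINO80#2. It was estimated from the peak values under the usual formulas of the peak caller. The lowest recovered background of each list was divided by the width of its narrowest peak (148, 140 and 144 bp). Before this division the backgrounds were 3.82, 5.16 and 5.34 reads. The siINO80#2 list held 76.2% as many peaks as NTG and the siINO80#1 list 99.4%. A peak was found at the start site of INO80 itself in each list. Depletion was not measured by these files. Of 12 liver marker genes, 11 had a start-site peak in NTG, 10 in siINO80#1 and 9 in siINO80#2, and FGB had none. Of 11 markers of other cell types, 1, 2 and 1 had one. At the canonical start alone, 10, 9 and 9 of the 12 liver markers had a peak and none of the 11 other markers.

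The sequences in which the results lie are given first, from GRCh37, 5′ to 3′ in the direction of transcription. The 300 bases upstream of the 5′-most annotated start were searched on both strands for 7 short motifs. These were the SRE (TCACNCCAC), NF-Y (CCAAT), Sp1 (GGGCGG), E-box (CACGTG), AP-1 (TGACTCA), FOXA (TGTTTAC) and DR4, a direct repeat of AGGTCA with 4 bases in between. An SRE match was found upstream of 3 of the 7 genes and of 1.31% of 20140 protein-coding genes. Those of HMGCS1 and SREBF2 are shown because the SREBP motif there can be set against a start-site peak in every list. The third match, TCACCCCAC at −87 bp, was upstream of FASN, which had no start-site peak in any list. Capitals mark SRE and NF-Y letters on either strand, and a run of 8 capitals in HMGCS1 is a pair of overlapping NF-Y matches on opposite strands.
HMGCS1, chr5:43313615-43313914, minus strand: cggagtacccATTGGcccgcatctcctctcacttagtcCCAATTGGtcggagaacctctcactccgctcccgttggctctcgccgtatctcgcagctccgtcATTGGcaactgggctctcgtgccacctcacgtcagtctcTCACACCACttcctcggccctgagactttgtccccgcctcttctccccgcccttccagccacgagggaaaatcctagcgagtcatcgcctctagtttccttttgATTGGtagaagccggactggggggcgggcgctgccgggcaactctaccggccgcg
SREBF2, chr22:42228809-42229108, plus strand: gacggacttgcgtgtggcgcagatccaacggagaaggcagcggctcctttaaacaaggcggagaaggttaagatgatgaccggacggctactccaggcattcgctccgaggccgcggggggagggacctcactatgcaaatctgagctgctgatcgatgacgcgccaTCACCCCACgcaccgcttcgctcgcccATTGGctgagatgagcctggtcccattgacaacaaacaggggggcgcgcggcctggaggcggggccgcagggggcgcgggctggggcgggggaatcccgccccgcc

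The SRE letters were TCACACCAC in HMGCS1, at −159 bp from the 5′-most start, and TCACCCCAC in SREBF2, at −133 bp. NF-Y letters were found upstream of 6 of the 7 genes, SREBF1 being the exception, against 36.9% of all genes, and Sp1 letters upstream of 7 of 7, against 50.5%. The E-box, AP-1, FOXA and DR4 letters were found upstream of none of the 7. Over all genes they were also uncommon, at 8.07%, 4.02%, 2.98% and 0.00497%. HMGCS1 held 5 NF-Y matches, of which a pair overlapped. These matches describe the sequence and are not measured binding sites.

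A start-site peak was taken as a peak with its summit within 1 kb of any annotated start of the gene. Of the 7 genes, 5 had a start-site peak in NTG, 5 in siINO80#1 and 4 in siINO80#2, whereas 60.4%, 60.1% and 53.4% of all 20162 protein-coding genes had one. HMGCS1, SQLE, SREBF2 and SCD had one in all 3 lists, as had 50.8% of protein-coding genes. INSIG1 and FASN had one in none of the lists, as had 35.1%. SREBF1 had one in NTG and siINO80#1 and none in siINO80#2. Among all genes with a start-site peak in NTG, 6.69% had none in siINO80#1 and 14.6% had none in siINO80#2, so the share of the 7 genes lost (0 of 5 and 1 of 5) was near the background.

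**Figure D1:**
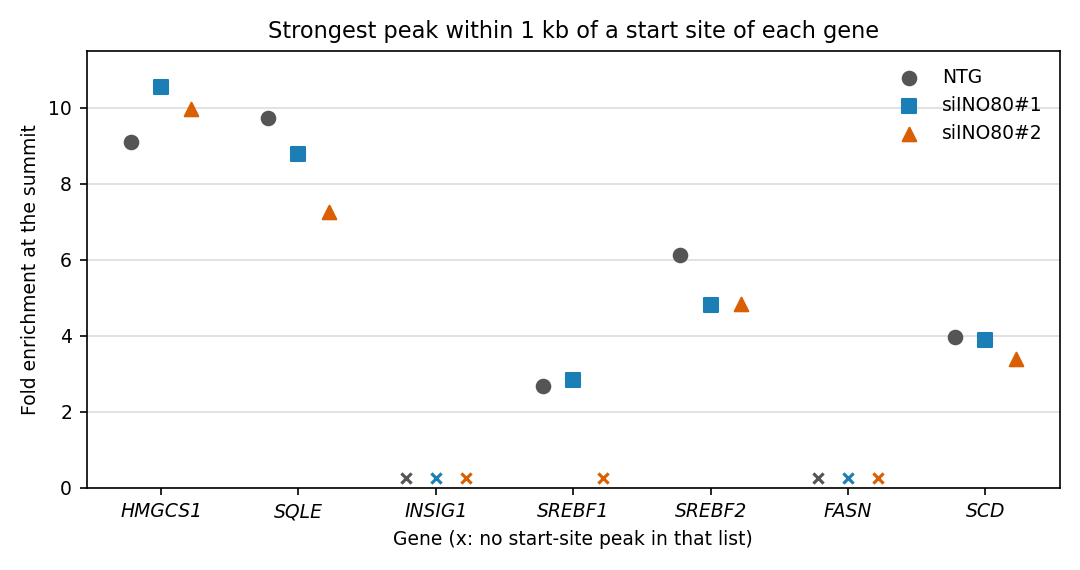
Fold enrichment at the summit of the strongest start-site peak of each gene (y axis, ratio to the local background, 1 point per list, no replicate error available). Crosses near 0 mark lists without a start-site peak. HMGCS1 and SQLE lie highest, between 7.27 and 10.54, SREBF1 lies lowest among genes with a peak, and INSIG1 and FASN have crosses only.

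HMGCS1 and SQLE carried the most strongly enriched start sites of the 7 genes in every list. At HMGCS1 the fold enrichment was 9.09 in NTG, 10.54 in siINO80#1 and 9.96 in siINO80#2. The summits lay at −323, −115 and −258 bp from the canonical start, and each interval of 847 to 1057 bp had 2 summits. Among all peaks at start sites of the same list, HMGCS1 ranked at the 91.1, 95.8 and 96.5 percentile. This start site thus ranked no lower with either siRNA than in NTG. The scaled reads were 28.5, 30.6 and 27.0, or 1.07 and 0.947 times NTG. The SRE letters shown above lay inside the peak of each list, with distances to the summit of 68, 140 and 3 bp in the order of the lists above.

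At SQLE the fold enrichment was 9.73 in NTG, 8.79 in siINO80#1 and 7.27 in siINO80#2. The percentile among start-site peaks was 93.5, 90.6 and 87.3. The scaled reads were 25.1, 20.2 and 14.1, or 0.805 and 0.562 times NTG. SQLE was therefore highest in NTG on each of these 3 scales and lowest in siINO80#2, and it remained in the upper part of each list. No SRE letters were found in its upstream 300 bases, which held 2 NF-Y and 4 Sp1 matches.

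SREBF2 and SCD had start-site peaks of intermediate rank. At SREBF2 the fold enrichment was 6.12 in NTG, 4.82 in siINO80#1 and 4.83 in siINO80#2, at the 72.1, 61.9 and 66.2 percentile of start-site peaks. The scaled reads of SREBF2 were 12.6, 9.31 and 8.25, or 0.739 and 0.655 times NTG. Both siINO80 lists were thus below NTG, and the percentile differed from NTG by −10.3 points in siINO80#1 and by −5.93 points in siINO80#2. At equal list size the siINO80#2 value was −0.187 points, so the lower rank with that siRNA depended on list size. The summit lay at −257 bp in NTG, where the interval overlaps an exon of the antisense gene SREBF2-AS1, and ATAC-seq does not tell the start sites of the pair apart. The SRE letters of SREBF2 lay inside the peak in each list, with distances to the summit of 128, 54 and 4 bp. This was the only region in the 114.2 kb window of SREBF2.

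At SCD the fold enrichment was 3.98 in NTG, 3.89 in siINO80#1 and 3.40 in siINO80#2. The percentile among start-site peaks was 45.0, 48.4 and 41.4, near the middle of each list. The scaled reads were 9.69, 8.92 and 6.75, or 0.921 and 0.697 times NTG. SCD was below NTG in scaled reads with both siRNAs, whereas its percentile was above NTG in siINO80#1 and below it in siINO80#2. Scaled reads were lower over genes at large: where the strongest start-site peaks of a gene overlapped between lists, the median ratio to NTG was 0.902 in siINO80#1 (10602 genes) and 0.716 in siINO80#2 (9718 genes), with quartiles of 0.774 to 1.05 and 0.601 to 0.838. In siINO80#1 the ratio lay within these quartiles for SQLE and SCD, below them for SREBF2 and above them for HMGCS1 and SREBF1. In siINO80#2 the ratio lay within the quartiles for SREBF2 and SCD, below them for SQLE and above them for HMGCS1.

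A shift of the percentile past 10 points was counted as moved. In siINO80#1, 1 of 5 genes moved up (SREBF1, by 12.3 points) and 1 moved down (SREBF2), whereas among 11372 protein-coding genes 16.9% moved up and 20.4% moved down, with a median of −0.396 points. In siINO80#2, 0 of 4 genes moved in either direction, whereas among 10405 genes 9.83% moved up and 34.5% moved down, with a median of −4.24 points. HMGCS1 had shifts of 4.66 and 5.35 points, SQLE of −2.88 and −6.20, and SCD of 3.41 and −3.55 points. The medians over the genes with a value were 3.41 points in siINO80#1 and −4.74 points in siINO80#2. NTG is the same list in both comparisons.

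SREBF1 has an upstream group of starts near 17740300 on chromosome 17 (minus strand), from which the isoform known as SREBP-1a is made, and a downstream group near 17726932, from which SREBP-1c is made. The peak counted above lay in the first intron after the upstream starts, at chr17:17739669-17739934 for the merged region. Its fold enrichment was 2.69 in NTG and 2.85 in siINO80#1, at the 13.2 and 25.5 percentile of start-site peaks, with 7.07 and 7.76 scaled reads. In fold enrichment and percentile these were the weakest of the start-site peaks counted above. At the downstream start a second peak was present in NTG alone, with its summit 215 bp from the start, a fold enrichment of 2.2 and a −log10 q of 1.67. It stood at the 1.33 percentile of all NTG peaks, near the lowest −log10 q of the list, 1.30. Another peak, in the intron between the start groups, was also present in NTG alone and was stronger, with a fold enrichment of 4.95, 40 reads at the summit and a −log10 q of 14.3. It stood at the 75.6 percentile of all NTG peaks, and 98.3% of the 27141 NTG peaks without a match in either siINO80 list had the same rank or a lower one.

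The NTG-only peaks of SREBF1 are shown because they lie at the start used for the isoform of fatty acid synthesis and in the intron before it. Capitals mark any of the 7 motifs.
SREBF1 downstream start, chr17:17727065-17727218, minus strand: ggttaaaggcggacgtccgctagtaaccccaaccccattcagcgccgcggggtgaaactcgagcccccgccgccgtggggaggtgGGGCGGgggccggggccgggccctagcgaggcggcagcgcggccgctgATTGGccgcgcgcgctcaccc
SREBF1 intron, chr17:17734092-17734324, minus strand: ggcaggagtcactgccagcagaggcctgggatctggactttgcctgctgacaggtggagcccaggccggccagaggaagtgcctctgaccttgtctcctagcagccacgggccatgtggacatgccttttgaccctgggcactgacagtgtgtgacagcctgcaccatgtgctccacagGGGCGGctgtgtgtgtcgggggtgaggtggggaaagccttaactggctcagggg

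The stretch at the downstream start held 1 Sp1 match and 1 NF-Y match, and the intronic stretch held 1 Sp1 match. A further region, −3.23 kb from the upstream start, had SRE, NF-Y and Sp1 letters in the 200 bp around its summit and was found in NTG, with a fold enrichment of 2.69, and in siINO80#1, with 1.98. Its rank among all peaks was 15.6 and 0.627. The siINO80#2 list had 0 peaks in the 66.6 kb window of SREBF1. The nearest siINO80#2 peaks to the upstream start were 84384 and 135400 bp away, and no peak numbers were skipped between them, so that no peak of the original numbering is missing there.

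FASN and INSIG1 had no start-site peak in any list. No peak numbers were skipped around either start. The 1 kb around the start was 78.9% G and C at FASN and 77.6% at INSIG1, against 63.3% to 71.2% at the other 5 genes. Of the 1034 protein-coding genes with 75% or more, 53.6% (95% Wilson interval 50.5 to 56.6) had a start-site peak in NTG, 57.0% (53.9 to 59.9) in siINO80#1 and 39.8% (36.9 to 42.9) in siINO80#2. Of the 3564 genes with 65% to 70%, 73.1%, 72.9% and 64.0% had one. The part of base composition in the absence of these peaks was not tested.

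**Figure D2:**
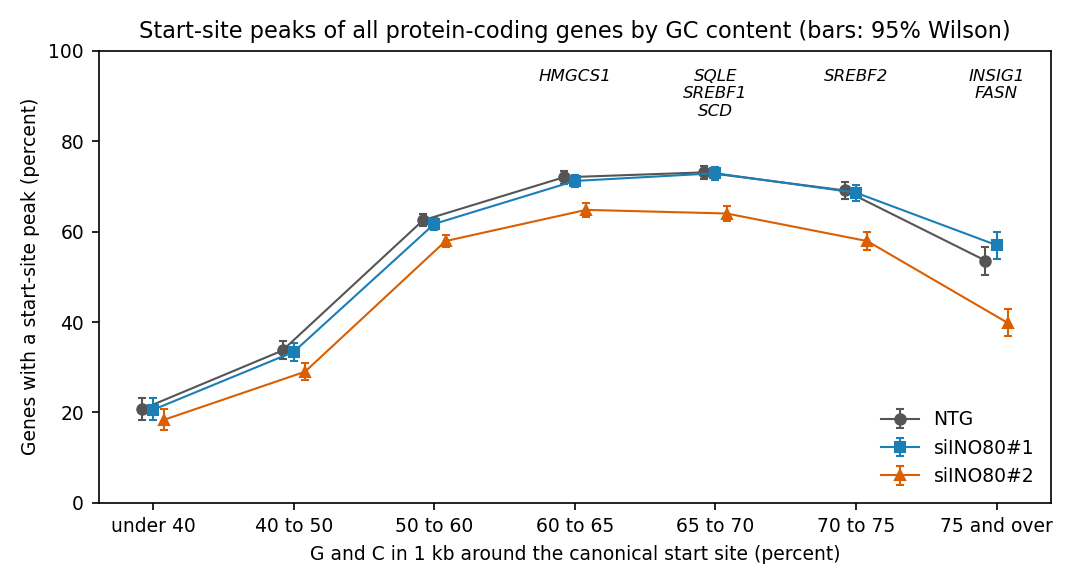
Share of protein-coding genes with a start-site peak (y axis, percent) by the G and C content of the 1 kb around the canonical start (x axis, percent), 1 line per list, with 95% Wilson intervals for counting error only. The share in each list is highest at 60% to 70% and falls above 75%, the bin that holds INSIG1 and FASN.

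In the window of FASN, 1 region was found in all 3 lists, at an annotated start of a short transcript of the neighbouring gene CCDC57, −8.21 kb from the start of FASN and in a CCDC57 exon. Its fold enrichment was 4.90 in NTG, 1.82 in siINO80#1 and 2.58 in siINO80#2. The percentile among all peaks of the list was 75.3, 0.111 and 23.1, and the scaled reads were 18.6, 6.98 and 8.81. The region thus ranked lower with both siRNAs, by 75.2 and 52.2 points. Of the 29863 regions in all 3 lists, 0.325% fell by over 50 points with both siRNAs, a threshold set after these values were seen. The other region in the window of FASN was a weak peak in NTG alone, 27.53 kb from the start and past the end of the gene.

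In the window of INSIG1, 1 region was found, and it was present in all 3 lists. It lay −6.65 kb from the start, with a fold enrichment of 3.19 in NTG, 2.84 in siINO80#1 and 2.54 in siINO80#2 and 5.76, 4.65 and 4.50 scaled reads. Its percentile among all peaks was 42.8, 37.6 and 21.5, lower with both siRNAs than in NTG. It is shown because it is the only accessible region called near INSIG1 and because the second AP-1 match shares bases with an SRE match. Capitals mark SRE and AP-1 letters.
INSIG1 distal region, chr7:155082833-155083066, plus strand: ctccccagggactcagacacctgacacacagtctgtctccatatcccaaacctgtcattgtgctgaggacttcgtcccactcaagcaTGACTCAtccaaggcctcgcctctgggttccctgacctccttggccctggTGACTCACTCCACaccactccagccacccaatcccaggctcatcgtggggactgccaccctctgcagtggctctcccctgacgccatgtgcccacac

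The windows of the 7 genes were then described as a whole. The median over the 7 genes was 4.70 peaks per 100 kb in NTG, 1.91 in siINO80#1 and 1.67 in siINO80#2, and the median over all protein-coding genes was 2.99, 2.76 and 2.11. The median of the 7 genes was thus above that of all genes in NTG and below it in both siINO80 lists. It lay within the quartiles of all genes in each list (1.5 to 5.18, 1.41 to 4.9 and 0.761 to 4.04). Single genes had a wide range, from 0.876 (SREBF2) to 15.6 (SCD) in NTG. With the 7 windows pooled, the density was 5.2, 3.33 and 2.5 peaks per 100 kb, above the median of all genes in each list. Relative to NTG the windows of the 7 genes held 64.0% as many peaks in siINO80#1 and 48.0% as many in siINO80#2, whereas the windows of all protein-coding genes held 97.8% and 75.7%. The count of the 7 genes was lower with both siRNAs. With the same number of peaks taken from each list, the windows held 18, 10 and 12 peaks, so that siINO80#2 was no longer the lowest.

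**Figure D3:**
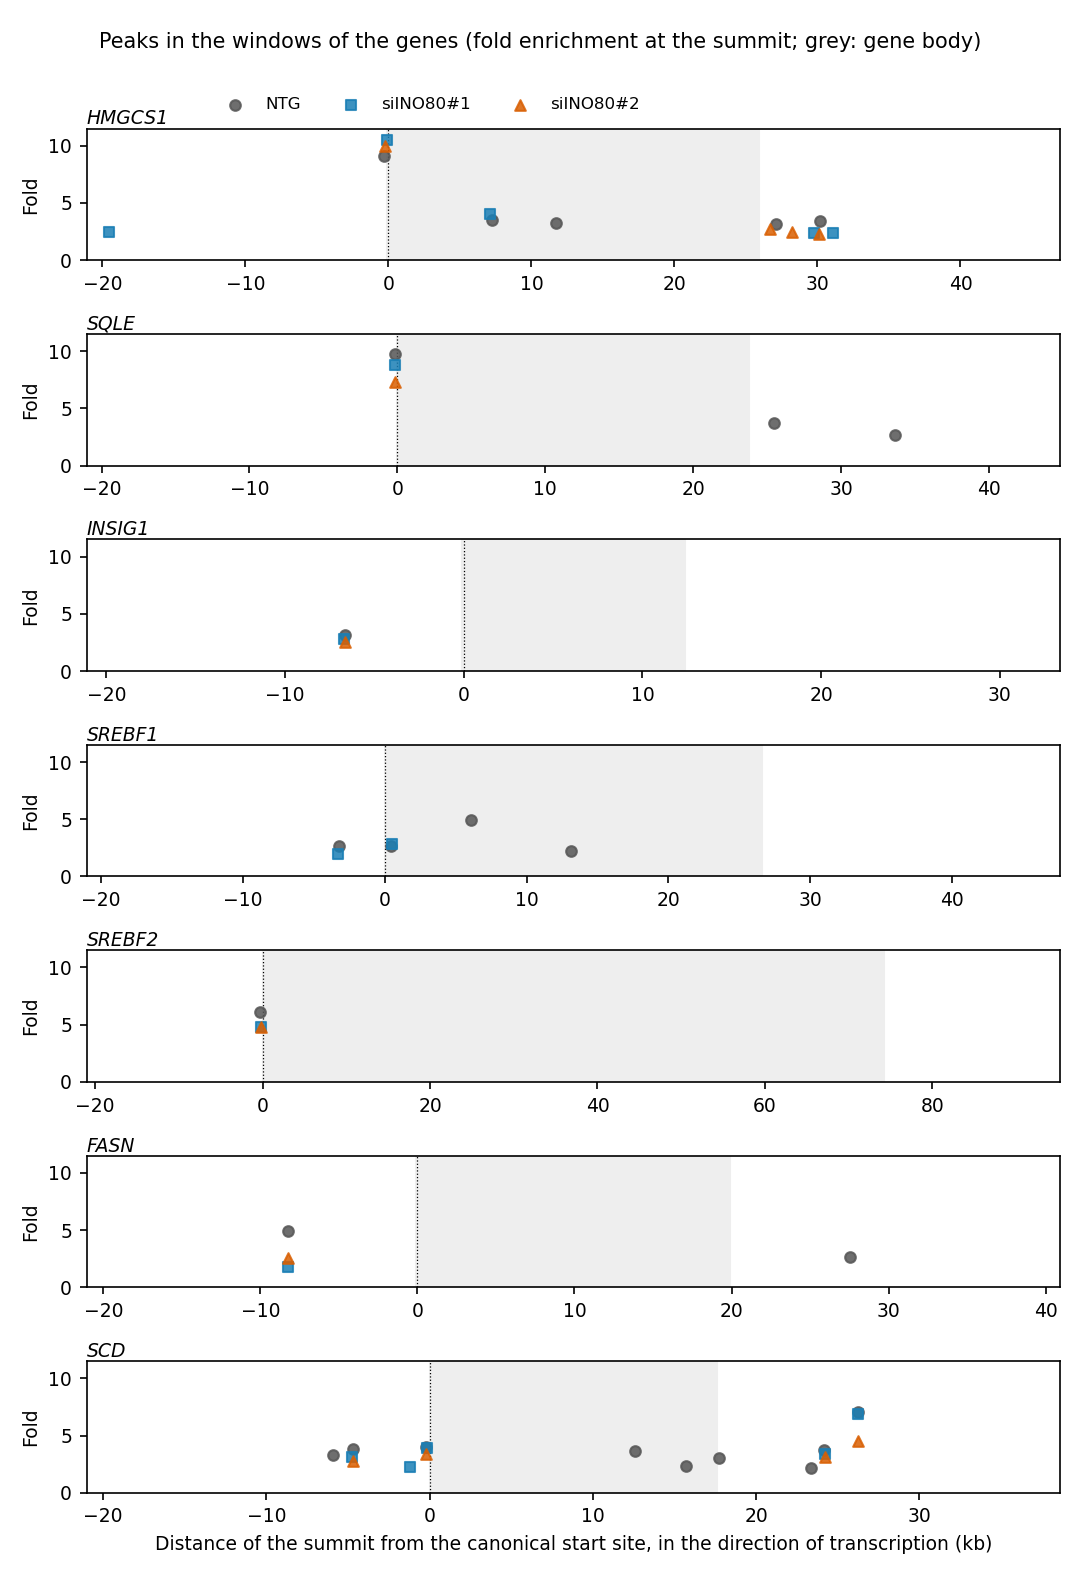
Fold enrichment (y axis, ratio to local background) of each peak in the windows of the 7 genes by the distance of its summit from the canonical start (x axis, kb, in the direction of transcription), with grey for the gene body and 1 symbol per list. Beyond 1 kb from the start, the gene bodies of SCD and SREBF1 have peaks of NTG alone, and the window of SREBF1 has no symbol for siINO80#2.

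The difference lay mostly in distal peaks, those over 1 kb from any annotated start. There were 16 distal peaks in NTG, 8 in siINO80#1 and 5 in siINO80#2. In the windows of all protein-coding genes, peaks of any kind were 97.8% and 75.7% as many as in NTG. Their distal regions are given below by the lists that hold them. Of the 16, 9 had no match in either siINO80 list (56.2%, 33.2 to 76.9), whereas 46.2% of the 51940 distal peaks of NTG had none. Over all 25 NTG peaks of the windows, 11 had no match in either list (44%, 26.7 to 62.9) against 38.9% of all NTG peaks, 13 had none in siINO80#1 (52.0%, against 43.5%) and 14 had none in siINO80#2 (56.0%, against 52.0%). Each of these background values lay inside the interval of the 7 genes.

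The 30 regions were sorted by the lists that held them. NTG alone held 11 (36.7%, 21.9 to 54.5), and all 3 lists shared 9 (30.0%, 16.7 to 47.9). In the windows of all protein-coding genes the shares were 23.0% and 31.7% of 69980 regions. NTG shared 3 further regions with siINO80#1 (10.0%, against 8.44%) and 2 with siINO80#2 (6.67%, against 2.61%). A further 4 were found with siINO80#1 alone (13.3%, against 19.5%) and 1 with siINO80#2 alone (3.33%, against 10.0%). None of the 30 regions was shared by siINO80#1 and siINO80#2 without NTG (0%, 0 to 11.4), against 4.80% in the windows of all genes. Among the 20 distal regions NTG alone held 9 (45.0%, 25.8 to 65.8, against 26.5%) and all 3 lists shared 3 (15.0%, 5.24 to 36.0, against 22.2%). Distal regions of siINO80#1 alone were 3 (15.0%, 5.24 to 36.0, against 22.6%). Those of siINO80#2 alone were 1 (5.0%, 0.888 to 23.6, against 12.1%). Of the 10 regions within 1 kb of a start, 6 were in all 3 lists (60%, 31.3 to 83.2, against 57.1%).

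**Figure D4:**
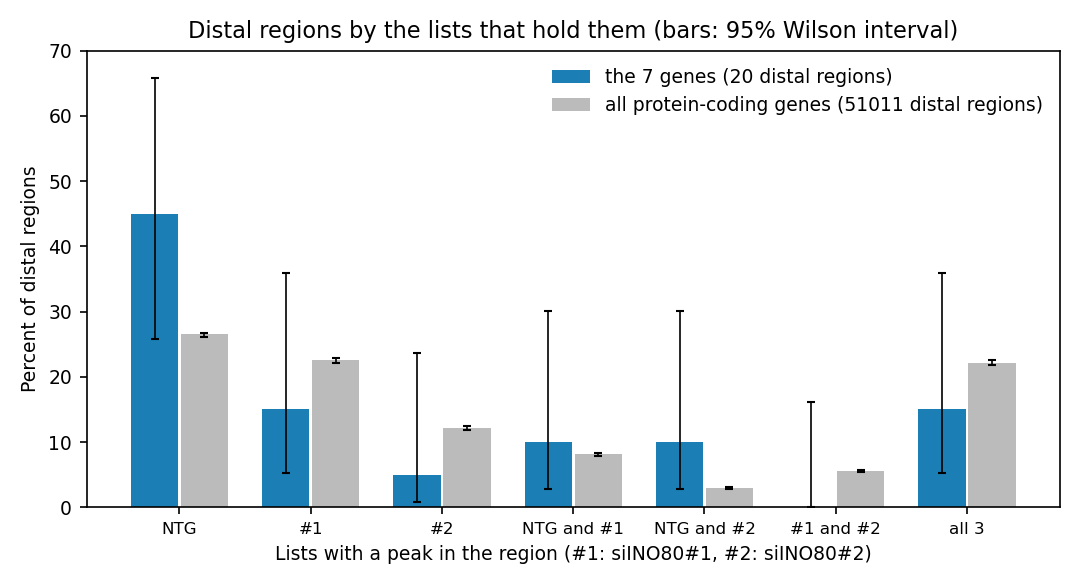
Distal regions sorted by the lists that hold a peak in them (x axis), as a percentage (y axis) of the 20 distal regions of the 7 genes and of the 51011 distal regions in the windows of all protein-coding genes, with 95% Wilson intervals for counting error only. NTG alone is the tallest bar in both sets, at 45.0% and 26.5%, and in each class the wide interval of the 7 genes includes the value of all genes.

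SCD accounted for the largest part of the NTG-only regions. Its window held 9 peaks in NTG, 5 in siINO80#1 and 4 in siINO80#2, and 5 of its 10 regions were in NTG alone. These 5 had fold enrichments of 3.33, 3.66, 2.36, 3.04 and 2.21 and stood at the 49.0, 56.7, 3.81, 35.5 and 1.44 percentile of NTG. They lay at −5.90, 12.60, 15.68, 17.75 and 23.37 kb from the start, the second in an intron and the next in an exon of SCD. A pair of other distal regions of SCD was present in all 3 lists. The one at −4.70 kb had a fold enrichment of 3.82, 3.13 and 2.75, and the one at 24.18 kb had 3.72, 3.35 and 3.12. The strongest peak of the window belonged to the start site of OLMALINC, a long non-coding RNA gene downstream of SCD, with 7.10 in NTG, 6.93 in siINO80#1 and 4.56 in siINO80#2. Here siINO80#1 was near NTG and siINO80#2 was below both, also in scaled reads (15.7, 15.3 and 8.43).

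The other NTG-only regions were single peaks. HMGCS1 had one in an intron at 11.72 kb with a fold enrichment of 3.29, and SQLE had one past the end of the gene at 25.48 kb with 3.74 and one at a start of WASHC5 with 2.70. Over the 11 NTG-only regions the median percentile within NTG was 35.5, against 29.8 for all unmatched NTG peaks. HMGCS1 had 5 peaks in NTG, 5 in siINO80#1 and 4 in siINO80#2. Its strongest distal region lay in an intron at 7.08 kb, with a fold enrichment of 3.51 in NTG and 4.06 in siINO80#1 and no peak in siINO80#2. A group of 5 weak regions lay past the end of HMGCS1, between 27.13 and 31.1 kb from the start, near the gene ENSG00000261604. Each had a fold enrichment between 2.33 and 3.44, and the lists differed in which of them were called. The summit of 1 siINO80#2 peak there lay within 1 kb of a start of that gene, so it was not counted as distal.

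The 200 bp around the strongest summit of each distal region were searched for the same motifs. AP-1 letters were found in 5 of the 20 distal regions (25%, against 13.0% of all 89742 distal regions). Of these 5, 2 were in NTG alone, 2 were in all 3 lists (INSIG1 and the SCD region at 24.18 kb) and 1 was in siINO80#1 alone. SRE letters were found in 2 of the 20 (10.0%, against 1.06%), the INSIG1 region and the region upstream of SREBF1. NF-Y letters were found in 6 (30.0%, against 25.4%) and Sp1 in 3 (15.0%, against 3.92%). E-box, FOXA and DR4 letters were found in none, against 2.44%, 5.49% and 0.0111% of all distal regions.

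Other genes of the pathway were counted from lists of names. Of 46 such genes, 43 had a start-site peak in NTG, 41 in siINO80#1 and 39 in siINO80#2, and 39 had one in all 3 lists. These shares were above the background of all protein-coding genes given above in each list. All 11 genes of SREBP regulation and sterol uptake, among them SCAP and INSIG2, had a peak in each list. Some of these peaks lay at starts far from the canonical one. In NTG the strongest was at 32515 bp for SCAP, −47072 bp for NR1H2 and −9110 bp for NR1H3. Of 18 further cholesterol synthesis enzymes, 18, 18 and 17 had one. Of 17 further genes of fatty acid synthesis, 14, 12 and 11 had one, and ME1, SCD5 and THRSP had none in any list. Counting the canonical start alone, a setting chosen after the values were seen, gave 40, 37 and 34 of 46, against 54.8%, 54.8% and 48.4% of all genes.

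The call was not the same in the 3 lists for 4 of the 46 genes, and each of the 4 had its peak in NTG. Over all 20162 protein-coding genes, 10236 (50.8%) had a peak in all 3 lists and 7083 (35.1%) in none, and the rest differed between lists. A peak in NTG was found for 12187 genes, the 10236 included, so most genes whose call differed also had a peak in NTG. TM7SF2, a sterol reductase of the cholesterol pathway, had a fold enrichment of 3.58 in NTG and 2.17 in siINO80#1. MLXIPL, which encodes the carbohydrate response factor ChREBP, had 4.31 in NTG and 3.63 in siINO80#1. GPAM, which starts triglyceride synthesis, had 4.47 and MCAT, a mitochondrial transacylase of fatty acid synthesis, had 3.08, both in NTG alone. Of the 43 genes with a peak in NTG, 2 had none in siINO80#1 and 4 had none in siINO80#2, where the background given above was 6.69% and 14.6%. Only 3 of the 46 genes had no peak in NTG, and these had none with siINO80 either. Over all genes, 12110 had a peak in siINO80#1, of which 11372 also had one in NTG. In siINO80#2 10765 had one, of which 10405 also had one in NTG. Calls thus differed in both directions over all genes. The GPAM peak lay at a distant alternative start, −31730 bp from the canonical one. The strongest start-site peak of a gene can lie at different starts in different lists, as for FADS2 and ACSL1, so shifts were counted only where the peaks of both lists overlapped, a restriction added after the values were seen. In siINO80#1 the percentile among start-site peaks moved up past 10 points in 3 and down in 13 of 38 genes (7.89% and 34.2%, median −4.69 points), against 16.3% and 20.3% of all genes counted the same way (median −0.438). In siINO80#2 it moved up in 1 and down in 13 of 34 genes (2.94% and 38.2%, median −7.74 points), against 9.46% and 34.0% (median −4.12). All shifts of the 7 genes given above were between overlapping peaks. The 7 genes and these lists were chosen with earlier results in view, and their counts are descriptions of single lists.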

How the data were processed

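ATAC-seq peaks of HepG2 cells were taken from 3 deposited lists, 1 per siRNA. Per the labels, each list belongs to the 3 replicates of its group, so replicates were pooled or called together. The submitters' processing notes name Trim Galore 0.4.1, Bowtie2, SAMtools, MACS2, deepTools 2.2.4 and hg19. They give no role or order, and the treatment of the transposase offset is not given in the sources used here. For each peak the authors deposited a fold enrichment (a ratio), −log10 p and −log10 q values and the summit. Each list starts at a −log10 q of 1.30. Absolute depth is not given by the lists. Reads at the summit and background were solved from fold enrichment and −log10 p under MACS2 formulas. The recomputed −log10 p differed from the deposited one by at most 0.00121.

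Intervals with several summits were counted once, at the summit of highest fold enrichment. Genes and starts were those of GENCODE v44lift37. PECAM1, a listed marker, was not matched. Overlap counted from 1 bp. Shares have 95% Wilson intervals, which cover counting error only. The text describes all 7 genes, the other pathway genes whose start-site call differs between lists, and the regions in NTG alone or strongest for a gene. The genes and lists were chosen with earlier results of these data known. Overlaps, the sorting of regions by list and the recovery of reads were tested on simulated data. The software was bedtools 2.31.1 and Python 3.11.15 with matplotlib 3.10.9, pysam 0.24.0, pandas 2.3.3, numpy 2.4.6 and scipy 1.17.1. Alternatives were 2.5 kb around starts, intervals in place of summits, a −log10 q of at least 5, equal list size, windows of the gene body or 50 kb, merging within 500 bp, an overlap of 50% and ranking by −log10 q. The canonical start alone, ranking by scaled reads and shifts between overlapping peaks alone were added after seeing the data.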

Additional observations from a re-analysis of the deposited data

Results flagged for a closer look

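Among 32 measures of the 7 genes (percentile shifts, ratios of scaled reads and counts of peaks), 2 went in opposite directions from NTG with the 2 siRNAs. The start-site percentile of SCD differed from NTG by 3.41 points in siINO80#1 and by −3.55 points in siINO80#2. Both are under 10 points, and at equal list size the siINO80#2 value was 7.77 points, on the same side as siINO80#1. The scaled reads of HMGCS1 were 1.07 times NTG in siINO80#1 and 0.947 times in siINO80#2. Both ratios lay above the upper quartile of all protein-coding genes, 1.05 and 0.838, so relative to genes at large they were on the same side. No replicate values exist, and neither difference between the siRNAs was tested.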

How the results depend on the processing

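No paired analysis was possible because no list gives a value per replicate, and for the same reason no replicate could be left out. The number of genes with a start-site peak stayed within 1 of the main count in each list under all 5 alternatives. With a minimum −log10 q of 5 there were 11, 9 and 7 window peaks (NTG, siINO80#1, siINO80#2), of which 5, 3 and 1 were distal, and 3 regions in NTG alone. It lowered the NTG peaks unmatched in siINO80#2 to 36.4%. The gene body alone held 11, 6 and 3 peaks, of which 5, 1 and 0 were distal, with 5 regions in NTG alone and 4 in all 3 lists. Equal list size gave 10 window peaks and 4 distal peaks in siINO80#1 and 6 regions in NTG alone. With a start-site distance of 2.5 kb, siINO80#2 had 3 distal peaks. With 50 kb either side, 1 region was shared by siINO80#1 and siINO80#2 without NTG. The number of genes past 10 points in siINO80#1 was 1 by −log10 q, at equal list size and by scaled reads. SREBF2 stood at −9.60 points by −log10 q and −9.34 by scaled reads, while at equal list size the NTG peak of SREBF1 was no longer among those kept. The causes were not tested. SREBF2 in siINO80#2 went from −5.93 to −0.187 points at equal list size. Counting only overlapping peaks of a gene changed no shift of the 7 genes. Absolute depth per list is unknown, with relative depth known only under the assumed formulas, and peaks near the lowest −log10 q may be missed in a list.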
